A study of Mus musculus with 9 samples.

Results

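Genes for neutrophil granule and cytosolic proteins were examined in the nasal mucosa of mice with an allergic rhinitis model. There were 10 such genes, found by their symbols in the platform annotation, out of 19938 genes with a probe set of their own, and each had exactly 1 probe set. The primary granule genes were Mpo, Elane, Prtn3 and Ctsg. The later genes were Ngp, Camp, Ltf and Lcn2, of later granules, and S100a8 and S100a9, of the cytosol. The series holds 9 Affymetrix Mouse Gene 1.0 ST arrays of whole nasal mucosa from BALB/c mice, an inbred strain, all labelled male and aged 6 to 8 weeks. The control group (3 arrays) received saline for sensitisation and for challenge. The OVA group (3 arrays) was sensitised to and then challenged with ovalbumin (the allergen, from egg white) and was killed 2 hours after the last challenge. The 4-week group (3 arrays) had the same ovalbumin treatment and was killed 4 weeks after the last challenge. The comparisons ask how the granule genes stood shortly after allergen and after a period without it. Values are on the log2 scale, so a difference of 1 log2 unit is a doubling.

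Neutrophils build their granules in sequence as they mature, mostly in the bone marrow. Promyelocytes make the primary or azurophil granules, which carry myeloperoxidase and serine proteases. Myelocytes and later cells make the specific and gelatinase granules, and the S100 proteins fill the cytosol. Messenger RNA for the primary granule proteins is largely lost before neutrophils enter the blood. Lactotransferrin and lipocalin 2 are also made by glands and by surface epithelium, so in whole mucosa their RNA need not come from neutrophils.

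The promoters of the primary granule genes and of Ngp are given because the calls reported below fell on primary granule genes and because PU.1 and C/EBP proteins, which drive granule genes, bind short motifs of the kind marked. Of the later genes only Ngp is printed. It was picked for having the most C/EBP motifs of the 10, so it does not represent the other later genes. Sequences are those of RefSeq on build GRCm38.p6, cover the 250 bases before the transcription start, and were matched for 10 of the 10 genes. Each runs 5′ to 3′ on the strand of its gene. In the first 4, capitals mark a PU.1 core, GAGGAA, lengthened to GAGGAAGT where the next bases match. In Ngp, capitals mark a C/EBP core, TTNNGNAA, on either strand.
Mpo (chr11:87793534-87793783, plus strand): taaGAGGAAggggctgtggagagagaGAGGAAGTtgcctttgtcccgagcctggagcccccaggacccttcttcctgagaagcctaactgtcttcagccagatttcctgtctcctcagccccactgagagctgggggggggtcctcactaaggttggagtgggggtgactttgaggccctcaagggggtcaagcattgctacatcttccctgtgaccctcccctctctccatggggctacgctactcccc
Elane (chr10:79886062-79886311, plus strand): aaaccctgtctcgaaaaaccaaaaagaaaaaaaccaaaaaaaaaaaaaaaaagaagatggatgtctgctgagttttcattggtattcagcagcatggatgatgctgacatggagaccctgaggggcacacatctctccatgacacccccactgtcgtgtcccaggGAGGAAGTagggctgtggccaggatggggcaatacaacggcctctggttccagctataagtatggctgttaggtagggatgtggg
Prtn3 (chr10:79879417-79879666, plus strand): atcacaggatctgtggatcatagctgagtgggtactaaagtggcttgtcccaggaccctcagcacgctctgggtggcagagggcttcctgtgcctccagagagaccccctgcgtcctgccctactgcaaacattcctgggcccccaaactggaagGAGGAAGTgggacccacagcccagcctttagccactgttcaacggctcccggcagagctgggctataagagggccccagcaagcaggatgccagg
Ctsg (chr14:56102575-56102824, minus strand): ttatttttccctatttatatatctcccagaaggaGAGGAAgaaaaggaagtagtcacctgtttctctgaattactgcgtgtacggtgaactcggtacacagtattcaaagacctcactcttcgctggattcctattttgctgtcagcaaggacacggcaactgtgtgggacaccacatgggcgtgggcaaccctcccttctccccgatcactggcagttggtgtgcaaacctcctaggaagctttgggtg
Ngp (chr9:110419558-110419807, plus strand): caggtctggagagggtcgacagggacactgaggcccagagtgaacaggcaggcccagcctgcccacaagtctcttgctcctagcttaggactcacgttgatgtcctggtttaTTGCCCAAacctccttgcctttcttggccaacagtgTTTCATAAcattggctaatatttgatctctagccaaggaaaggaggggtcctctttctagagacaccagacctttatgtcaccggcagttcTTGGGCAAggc
Both motifs were searched on both strands. GAGGAA occurred in all 4 primary promoters, with 2 copies in Mpo, and among the later genes in Ltf, Lcn2 and S100a8. It occurred in 23.3% of the 32851 promoters of the same length. The longer GAGGAAGT, which contains GAGGAA and was chosen after the sequences were seen, occurred in Mpo, Elane, Prtn3 and S100a8, and in 2.44% of all promoters. The C/EBP core was found in no primary promoter and not in Camp, but occurred 3 times in Ngp, 2 times each in Ltf and S100a9, and 1 time each in Lcn2 and S100a8, against 36.8% of all promoters. A match is a description of letters and not of binding. Prtn3 and Elane are neighbours on chromosome 10, as are S100a8 and S100a9 on chromosome 3, while Ngp, Camp and Ltf lie apart on chromosome 9.

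The array medians lay between 6.38 and 6.45, and arrays of 1 group correlated across genes at r = 0.986 to 0.992. The labels do not say that arrays came from separate animals, so the p-values take in no more than the spread among these arrays, which may be technical. Sex-linked genes went against the label of 1 group: Xist, the RNA of X inactivation in females, read 10.62 to 11.11 on the arrays labelled control and 4.22 to 4.42 on the other 6, and the Y-linked Eif2s3y, Uty and Kdm5d ran the opposite way. Any difference from the arrays labelled control therefore cannot be told apart from a difference between female and male mice. The comparison of the 4-week with the OVA group is free of this. The first array labelled control was also the highest in markers of squamous epithelium, with Krt10 at 6.95 against 5.06 to 5.49 on the others. Its mean over 15 such genes was 5.71, against 4.94 and 4.96 on the other arrays labelled control, 4.98 to 5.54 on the OVA arrays and 4.88 to 4.97 on the 4-week arrays. In whole tissue, fewer neutrophils and less RNA per neutrophil cannot be told apart.

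The primary granule genes were lower 4 weeks after the last challenge than on the arrays labelled control. Mpo, Elane and Prtn3 fell by 1.37, 1.14 and 1.41 log2 units, which is 2.58-fold, 2.2-fold and 2.66-fold, and Ctsg was 0.76 lower without passing the test. Their means stood in the same order for all 4 genes, highest on the arrays labelled control, then in the OVA group, and lowest in the 4-week group, with neither step alone passing the test. Calls rest on an adjusted p under 0.05 in limma over 23410 probe sets. In this comparison 6.45% of all probe sets were called lower, against 3 of the 4 primary genes.

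Mpo encodes myeloperoxidase, the enzyme that makes hypochlorous acid. It read 7.66, 7.08 and 7.02 on the arrays labelled control, 6.81, 6.06 and 5.87 on the OVA arrays, and 6.50, 5.81 and 5.34 on the 4-week arrays. Every array labelled control lay above all 6 others, while the OVA and 4-week arrays overlapped. The 4-week mean of 5.88 ± 0.58 (SD, n = 3) was below the control mean of 7.25 ± 0.35 by 1.37 ± 0.33 (SE, limma adjusted p = 0.0278). The OVA mean of 6.25 ± 0.50 was 1.00 ± 0.33 below control (limma adjusted p = 0.182), and the 4-week mean was 0.37 ± 0.33 below the OVA mean (limma adjusted p = 0.537). The call against control was lost in 5 of the 9 fits that each left out 1 array, those without any 1 of the 3 arrays labelled control or without 4-week array 2 or 3, with limma adjusted p = 0.0519 to 0.0828.

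Elane encodes neutrophil elastase, a serine protease. Its values were 7.87, 7.51 and 7.63 on the arrays labelled control, 7.32, 7.09 and 6.89 on the OVA arrays, and 7.23, 6.21 and 6.16 on the 4-week arrays. The arrays labelled control again lay above all others, and the first 4-week array stood about 1 log2 unit above the other two. Elane in the 4-week group (6.53 ± 0.60, SD, n = 3) was 1.14 ± 0.26 (SE) below control (7.67 ± 0.18, limma adjusted p = 0.0238). It was 0.57 ± 0.26 below control in the OVA group (limma adjusted p = 0.322), and a further 0.57 ± 0.26 below the OVA group at 4 weeks (limma adjusted p = 0.227). Without the first 4-week array this last difference was -0.91 and passed the test (limma adjusted p = 0.0236). The call against control was lost without any of the same 5 arrays as for Mpo (limma adjusted p = 0.0537 to 0.0815), and in the fit on these groups alone (limma adjusted p = 0.0583).

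Prtn3 encodes proteinase 3, a close relative of elastase. It read 7.44, 6.68 and 6.38 on the arrays labelled control, 6.05, 5.75 and 5.84 on the OVA arrays, and 5.80, 5.28 and 5.17 on the 4-week arrays. The groups labelled control and OVA did not overlap, nor did control and 4-week, and the first 4-week array lay within the OVA range. Prtn3 fell by 1.41 ± 0.26 (SE) from control (6.83 ± 0.55, SD, n = 3) to the 4-week group (5.42 ± 0.34, limma adjusted p = 0.0105). This call held in 9 of the 9 fits without 1 array, with a limma adjusted p of at most 0.0419. The OVA mean of 5.88 ± 0.15 was 0.95 ± 0.26 below control (limma adjusted p = 0.122), and the 4-week mean was 0.46 ± 0.26 below OVA (limma adjusted p = 0.317).

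Ctsg encodes cathepsin G, a serine protease with chymotrypsin-like activity. It read 6.93, 5.77 and 5.95 on the arrays labelled control, 6.15, 5.48 and 5.20 on the OVA arrays, and 6.03, 5.12 and 5.22 on the 4-week arrays. All 3 groups overlapped, and the first array of each group stood above the other two. The 4-week mean was 0.76 ± 0.36 (SE) below control, with a 95% interval of -1.58 to 0.07 (limma adjusted p = 0.184). That interval holds the size of the changes of Mpo, Elane and Prtn3 as well as no change. The first array was the highest of its group for all 4 primary genes in all 3 groups. Without the first array labelled control, the highest in squamous markers, the differences at 4 weeks were -1.16 for Mpo (limma adjusted p = 0.074), -1.04 for Elane (0.0645) and -1.11 for Prtn3 (0.0161). The part of the squamous tissue on that array was not tested.

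**Figure D1:**
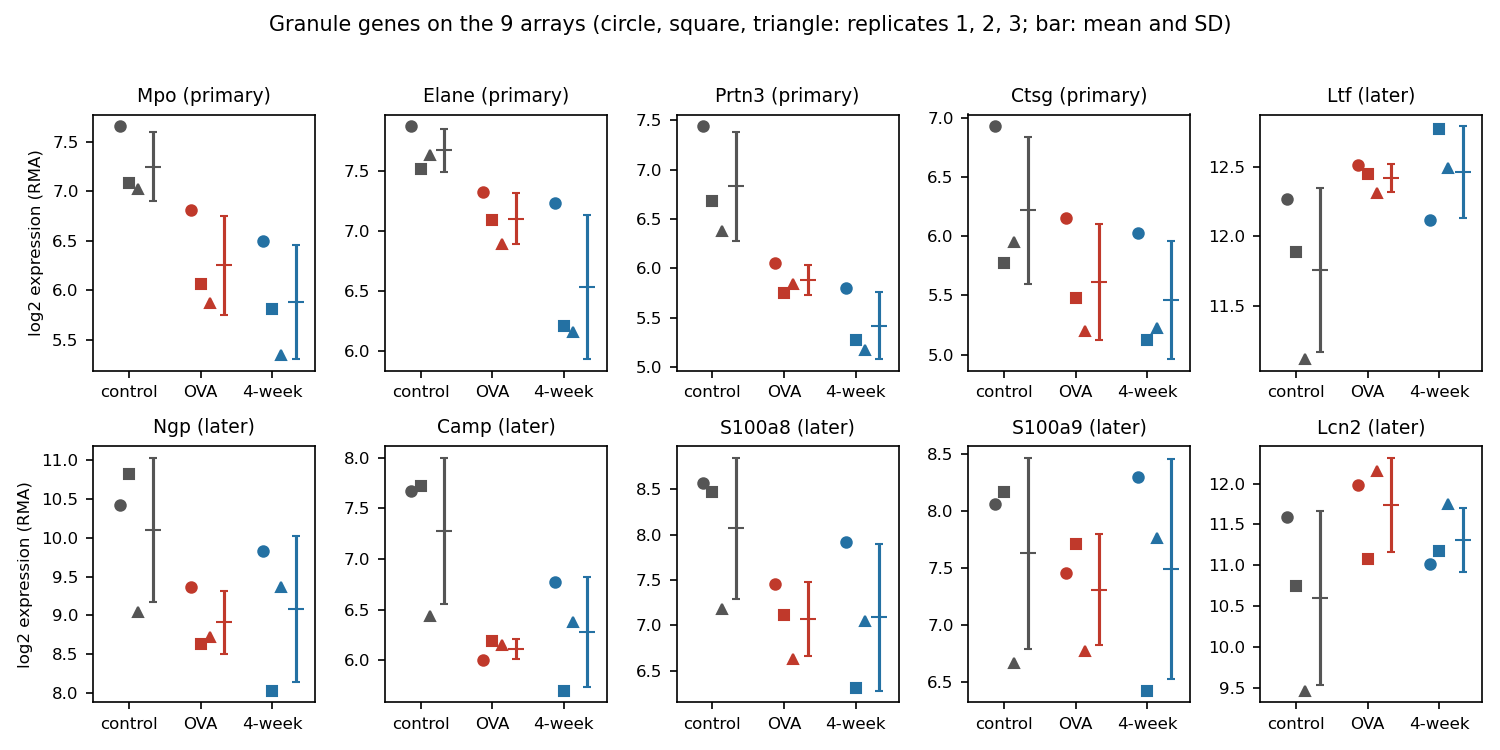
Log2 expression of the 10 genes (vertical axes, 1 panel per gene with its own range) in the 3 groups, with 1 symbol per array and a bar for the mean and SD of 3 arrays. For Mpo, Elane and Prtn3 every array labelled control lies above all OVA and 4-week arrays, whereas Ltf is higher in the OVA group and the other later genes spread widely within groups.

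The later genes differed in direction among themselves and none passed the test in any comparison. Ngp, Camp, S100a8 and S100a9 had lower means in the OVA and 4-week groups than on the arrays labelled control, while Ltf and Lcn2 had higher ones. Their spread within groups was wide, with SDs on the arrays labelled control of 0.59 to 1.07 log2 units, and the third such array was the lowest of its group for all 6 genes.

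Ngp encodes neutrophilic granule protein, a cystatin-related protein of specific granules. It read 10.42, 10.82 and 9.04 on the arrays labelled control, 9.37, 8.63 and 8.72 on the OVA arrays, and 9.83, 8.03 and 9.37 on the 4-week arrays. The third array labelled control fell inside the range of both other groups. The differences from control were -1.19 ± 0.54 (SE) in the OVA group (limma adjusted p = 0.313) and -1.02 ± 0.54 in the 4-week group (limma adjusted p = 0.219).

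Camp encodes the precursor of cathelicidin, an antimicrobial peptide of specific granules. It read 7.67, 7.72 and 6.44 on the arrays labelled control, 6.00, 6.19 and 6.15 on the OVA arrays, and 6.77, 5.70 and 6.38 on the 4-week arrays. The arrays labelled control lay above all OVA arrays but overlapped with the 4-week arrays. Camp was 1.16 ± 0.35 (SE) lower than control in the OVA group (limma adjusted p = 0.156) and 1.00 ± 0.35 lower in the 4-week group (limma adjusted p = 0.0904). Without the third array labelled control both differences passed the test, at -1.58 (limma adjusted p = 0.0497) and -1.41 (limma adjusted p = 0.0203).

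S100a8 and S100a9 encode the subunits of calprotectin, a calcium- and zinc-binding complex that is plentiful in the neutrophil cytosol. S100a8 read 8.57, 8.47 and 7.18 on the arrays labelled control, 7.46, 7.11 and 6.63 on the OVA arrays, and 7.92, 6.31 and 7.05 on the 4-week arrays. S100a9 read 8.06, 8.17 and 6.66 on the arrays labelled control, 7.46, 7.71 and 6.77 on the OVA arrays, and 8.30, 6.42 and 7.76 on the 4-week arrays. All groups overlapped for both genes, and the first 4-week array was the highest of all 9 for S100a9. S100a8 differed from control by -1.01 ± 0.46 (SE) in the OVA group (limma adjusted p = 0.323) and by -0.98 ± 0.46 in the 4-week group (limma adjusted p = 0.176). The matching differences of S100a9 were -0.32 ± 0.53 (limma adjusted p = 0.814) and -0.14 ± 0.53 (limma adjusted p = 0.878), with a 95% interval of -1.34 to 1.07 for the 4-week group.

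Ltf encodes lactotransferrin, the iron-binding protein of specific granules and of gland secretions. It read 12.27, 11.89 and 11.12 on the arrays labelled control, 12.51, 12.45 and 12.31 on the OVA arrays, and 12.12, 12.77 and 12.49 on the 4-week arrays. The OVA arrays lay just above those labelled control, and the first 4-week array fell back inside the control range. Ltf differed from control by 0.67 ± 0.27 (SE) in the OVA group (limma adjusted p = 0.267) and by 0.70 ± 0.27 in the 4-week group (limma adjusted p = 0.106). Without the first array labelled control, the difference of the 4-week group was 0.96 and passed the test (limma adjusted p = 0.0451).

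Lcn2 encodes lipocalin 2, which binds bacterial siderophores and is made by neutrophil precursors and by inflamed epithelium. It read 11.59, 10.75 and 9.46 on the arrays labelled control, 11.98, 11.08 and 12.16 on the OVA arrays, and 11.02, 11.17 and 11.75 on the 4-week arrays. The third array labelled control stood more than 1 log2 unit below every other array, and the first lay within the range of the OVA group. Lcn2 differed from control by 1.14 ± 0.49 (SE) in the OVA group (limma adjusted p = 0.298) and by 0.71 ± 0.49 in the 4-week group (limma adjusted p = 0.339). The mean over 17 genes of airway secretory and respiratory epithelium was also lowest on the third array labelled control, at 8.04 against 8.54 to 8.97 on the other 8, and its part in the values of Ltf and Lcn2 was not tested.

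**Figure D2:**
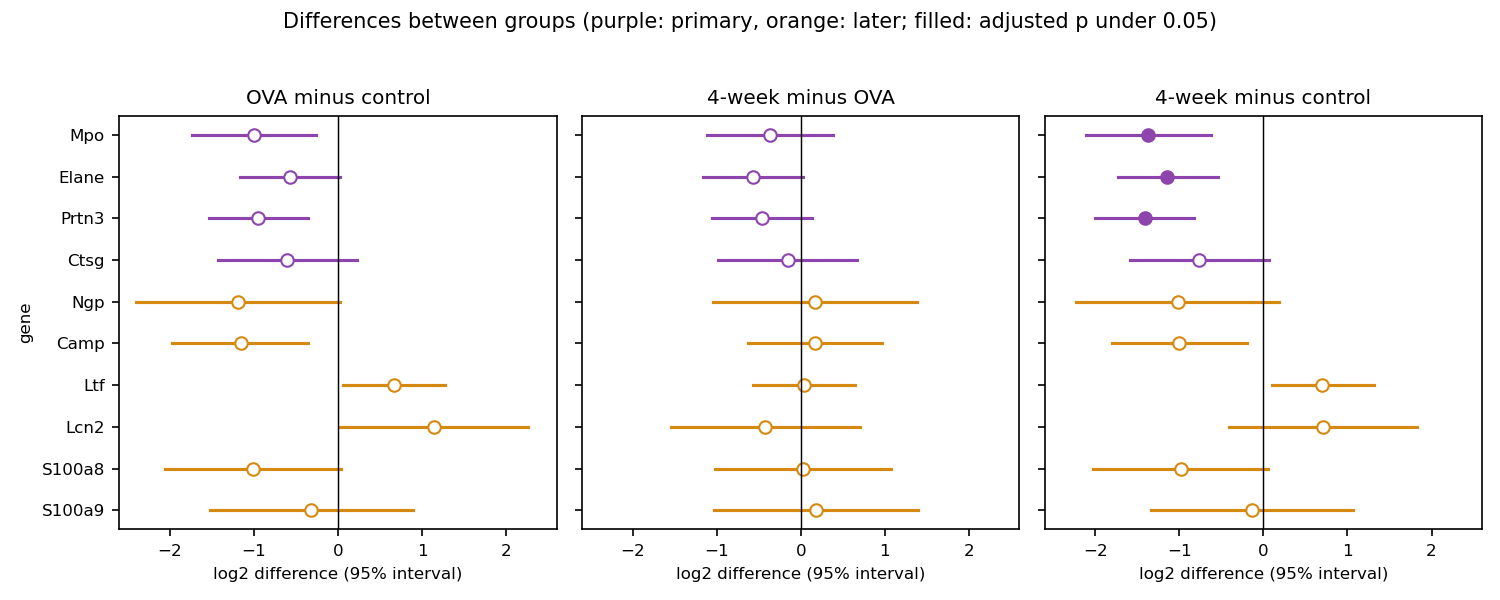
Log2 differences between groups (horizontal axis) with 95% intervals from the limma fit for the 10 genes (rows), 1 panel per comparison. Filled points, with an adjusted p under 0.05, appear for Mpo, Elane and Prtn3 in the comparison of the 4-week group with control and nowhere else.

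Between the OVA and control groups, no granule gene passed the test, in a comparison where limma called 305 of 23410 probe sets, or 1.30%, and 3834 had an unadjusted p under 0.05. The unadjusted limma p was under 0.05 for Mpo (0.014), Prtn3 (0.00526), Camp (0.00948), Ltf (0.0345) and Lcn2 (0.0471). Groups that did not overlap were found for Mpo, Elane, Prtn3 and Camp, lower after OVA, and for Ltf, higher after OVA. Over all probe sets, 21.5% did not overlap, 11.1% lying wholly lower and 10.4% wholly higher. The median difference was -0.78 over the 4 primary genes and -0.66 over the 6 later genes, beside -0.02 over all probe sets.

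Between the 4-week and OVA groups, which share the same sex-linked pattern, again 0 of the 10 genes passed, where limma called 1481 probe sets, or 6.33%, and 5598 had an unadjusted p under 0.05. For none of the 10 genes was the unadjusted p under 0.05, the lowest being that of Elane (0.0593). All 10 genes overlapped between these groups, against 28.1% of probe sets that did not. The 4 primary genes were all lower at 4 weeks, by 0.15 to 0.57, with a median of -0.41. The later genes ran from -0.42 for Lcn2 to 0.18 for S100a9, with a median of 0.10. Their limma adjusted p ranged from 0.645 to 0.983. Intervals were wide: for Ngp the 95% interval ran from -1.04 to 1.38, which holds a 2-fold change in either direction as well as none.

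Between the 4-week and control groups, 3 of the 4 primary genes and 0 of the 6 later genes were called, where 14.4% of all probe sets were called in either direction. The median difference was -1.25 over the primary genes and -0.56 over the later genes, beside -0.04 over all probe sets. Mpo, Elane and Prtn3 lay wholly below control, as did 18.4% of all probe sets, and 35.0% did not overlap in either direction. Both comparisons against control use the same 3 arrays, and both involving the 4-week group share those arrays, so the 3 sets of differences are not independent. Whether primary and later genes differed from each other was not tested.

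The stages were set side by side on each array as the mean deviation of their genes from each gene's own mean over the 9 arrays. The primary genes deviated by 1.13, 0.42 and 0.40 log2 units on the arrays labelled control, by 0.24, -0.25 and -0.39 on the OVA arrays, and by 0.05, -0.73 and -0.87 on the 4-week arrays. Here the arrays labelled control stood above all others, and 4-week arrays 2 and 3 lay lowest. Ngp, Camp, S100a8 and S100a9 deviated by 0.98, 1.10 and -0.37, by -0.13, -0.29 and -0.63, and by 0.50, -1.09 and -0.06 in the same order. For these genes 2 arrays labelled control and the first 4-week array were high, and the lowest of all was the second 4-week array. Ltf and Lcn2 deviated by 0.21, -0.40 and -1.43, by 0.53, 0.05 and 0.52, and by -0.15, 0.26 and 0.41. Their deviations were lowest on the third array labelled control and highest on the OVA arrays 1 and 3. The division of the later genes into these sets was made after their values were seen and is a description.

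**Figure D3:**
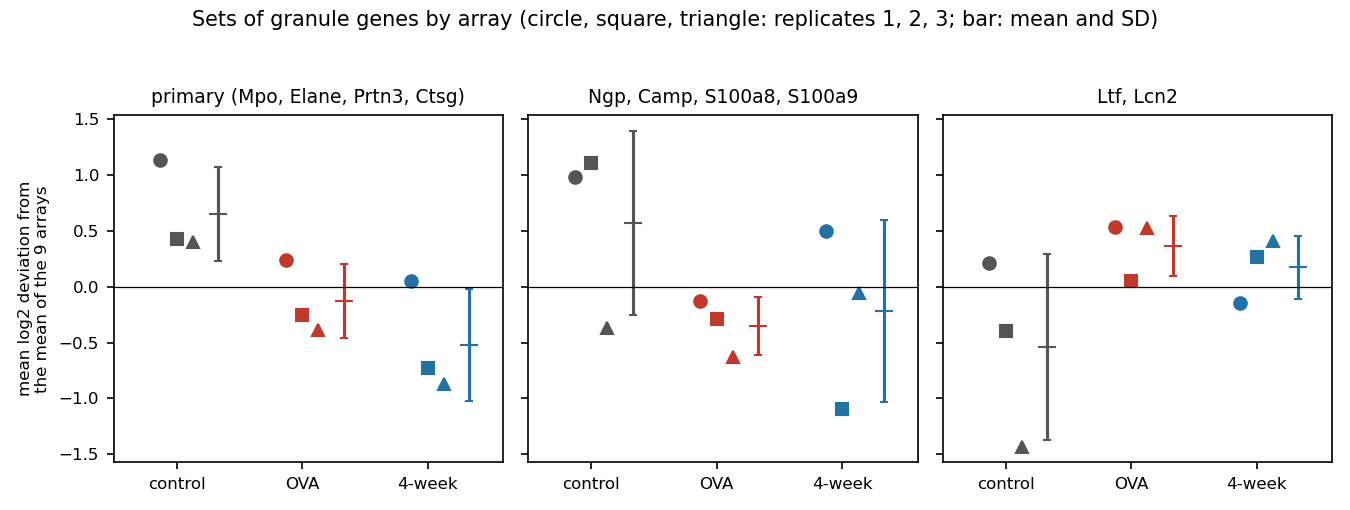
Mean log2 deviation (vertical axis) of the primary genes, of Ngp, Camp, S100a8 and S100a9, and of Ltf and Lcn2 on each of the 9 arrays, each gene centred on its mean over all arrays. Symbols are arrays and bars give the mean and SD of 3 arrays. The primary set steps down from 0.65 ± 0.42 to -0.13 ± 0.33 and -0.52 ± 0.50, whereas Ltf and Lcn2 go from -0.54 ± 0.83 to 0.36 ± 0.27 and 0.17 ± 0.28.

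The primary genes ran together across the 9 arrays. So did Ngp, Camp, S100a8 and S100a9, a later set divided off after the values were seen. Pearson's r between the primary genes was 0.84 to 0.94 over 6 pairs, and between Ngp, Camp, S100a8 and S100a9 it was 0.70 to 0.96 over 6 pairs. Pairs of 1 gene from each of these sets ran from 0.33 for Mpo with S100a9 to 0.80, which overlaps the range within the later set. After group means were removed, r was 0.70 to 0.90 within the primary genes and 0.88 to 0.95 within the later set. Across the sets it was then 0.31 to 0.73, which overlaps the range of the primary genes. Ltf and Lcn2 correlated with each other at r = 0.81 but at r = -0.61 to -0.11 with the primary genes and at r = -0.37 to 0.14 with the other later genes. After group means were removed, these ranges were -0.21 to 0.59 and 0.21 to 0.57. These values describe 9 arrays in 3 groups, on which all genes share tissue pieces and hybridisation.

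**Figure D4:**
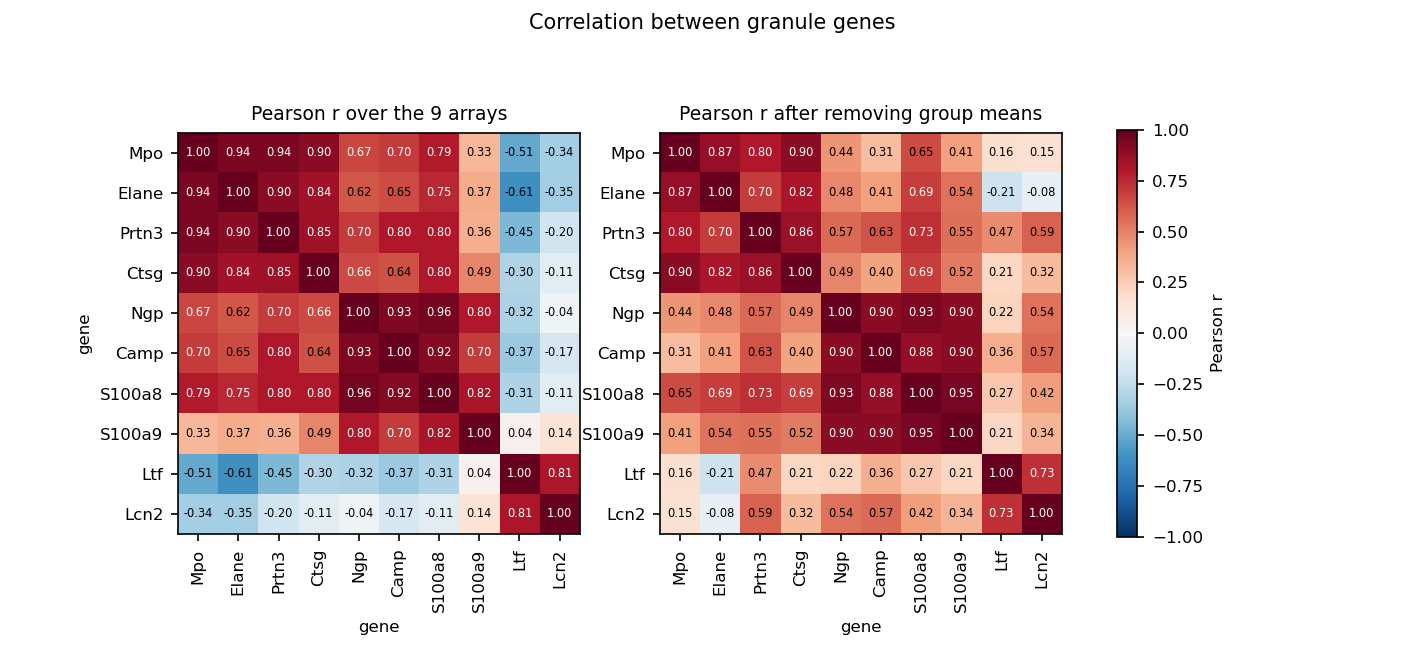
Pearson's r for each pair of the 10 genes over the 9 arrays (left) and over deviations from group means (right), coloured from -1 to 1. The primary genes form 1 block, Ngp, Camp, S100a8 and S100a9 another, and Ltf with Lcn2 stand apart, negatively or weakly correlated with the rest on the left. Pairs across the first blocks reach 0.80 on the left and 0.73 on the right.

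The genes most like each pattern were sought by r over the 9 arrays among 489 genes with an SD of at least 0.5. Ly6g, the surface antigen that marks mouse neutrophils, ranked first for Ngp (r = 0.98), for Camp (0.94) and for S100a8 (0.97). For S100a9 Mmp8, the neutrophil collagenase of specific granules, ranked first (0.87), followed by Ly6g (0.78). Neutrophil genes that varied less were not searched, among them Ms4a3 (SD 0.41), Trem3 (0.45), Cebpe (0.35) and Padi4 (0.24). Among the genes searched, the mean of the primary genes had no other neutrophil gene in its nearest 8. These were 7 olfactory receptor genes, led by Olfr362 (0.94) and Olfr449 (0.93), and Ppbp (0.90), the platelet basic protein. Olfactory receptors made up 30.7% of the genes searched. They were also common among the nearest 8 of single genes. The counts were 7 for Mpo, 6 for Elane, and 4 each for Prtn3 and Ctsg. Those for Camp, S100a8, Ngp and S100a9 were 7, 6, 5 and 4.

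Ltf and Lcn2 had other neighbours. The nearest to Ltf were the secretoglobin Scgb2b27 (0.98) and the carbonic anhydrases Car8 (0.98), Car12 (0.96) and Car6 (0.95), with the granule gene Pglyrp1 at 0.93. Lcn2 was nearest to Clca3a2 (0.96), to Cd74 (0.95), the invariant chain of antigen presentation, and to Anxa1 (0.94). No olfactory receptor was among the nearest 8 of either gene.

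The rest of the neutrophil programme was read from the same fit. Of 19 measured genes of mature neutrophil identity, 2 were called higher and 0 lower in OVA against control, 0 higher and 5 lower in 4-week against OVA, and 0 higher and 3 lower in 4-week against control. Their median differences were 0.24, -0.39 and -0.12. The shares of all probe sets called higher and lower were 0.782% and 0.521% for OVA against control, 3.81% and 2.51% for 4-week against OVA, and 7.92% and 6.45% for 4-week against control.

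Csf3r, the receptor for granulocyte colony-stimulating factor, read 6.66, 6.27 and 5.80 on the arrays labelled control, 7.40, 7.25 and 7.15 on the OVA arrays, and 6.17, 6.13 and 6.46 on the 4-week arrays. The OVA arrays were the highest and overlapped with neither other group. Csf3r rose by 1.03 ± 0.19 (SE) after OVA (limma adjusted p = 0.0443) and was lower by 1.02 ± 0.19 at 4 weeks (limma adjusted p = 0.0212). The first call held in 1 of the 9 fits without 1 array and the second in 4. Trem1, an activating receptor of neutrophils and monocytes, rose by 0.74 ± 0.14 (limma adjusted p = 0.0466, held in 1 of 9) and was 0.65 ± 0.14 lower at 4 weeks (limma adjusted p = 0.0333, held in 3 of 9). Mxd1, a MYC antagonist of mature neutrophils, fell by 0.55 ± 0.08 from OVA to 4 weeks, a call that held in 9 of 9 fits (limma adjusted p = 0.00744). Clec4d and Ncf4 also fell in that comparison, with calls that held in 1 and 0 of 9 fits, and Mxd1, Wfdc21 and Padi4 were called lower at 4 weeks than control. With every row of the table in the adjustment, the rises of Csf3r and Trem1 missed the threshold (limma adjusted p = 0.0842 and 0.089), as did the differences of Clec4d (0.054), Ncf4 (0.0654) and Padi4 (0.0678). In the fit on the groups compared alone, these rises also missed it (limma adjusted p = 0.0957 and 0.081). So did Trem1 (0.0833), Clec4d (0.0921) and Ncf4 (0.0891) against OVA, and Mxd1 (0.0557) and Padi4 (0.0827) against control. Under quantile normalization Clec4d (limma adjusted p = 0.0646), Ncf4 (0.0701), Wfdc21 (0.055) and Padi4 (0.134) missed it.

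Ly6g, whose pattern was the nearest to those of Ngp, Camp and S100a8, was not called. It read 8.61, 8.68 and 7.09 on the arrays labelled control, 7.05, 6.50 and 6.10 on the OVA arrays, and 7.58, 5.62 and 7.14 on the 4-week arrays. The OVA arrays lay below those labelled control, and the 4-week arrays overlapped with both. Its difference from control was -1.58 ± 0.56 (SE) in the OVA group (limma adjusted p = 0.212) and -1.35 ± 0.56 in the 4-week group (limma adjusted p = 0.131). Cxcr2, the chemokine receptor of circulating neutrophils, differed by 0.81 after OVA (limma adjusted p = 0.137), and Retnlg, a resistin-like gene of neutrophils, by 0.49 (limma adjusted p = 0.685).

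A list of 9 other genes was set beside the primary granule genes, and not all of them encode granule proteins. Only Ms4a3, a marker of granulocyte and monocyte progenitors, was called. It was lower by 0.72 ± 0.17 (SE) at 4 weeks than control (limma adjusted p = 0.0284, held in 5 of 9 fits), and missed the threshold in the fit on these groups alone (0.07). It read 5.80, 5.36 and 5.31 on the arrays labelled control, 4.74, 4.89 and 4.73 on the OVA arrays, and 4.67, 4.50 and 5.13 on the 4-week arrays. All OVA and 4-week arrays lay below those labelled control, as for Mpo, Elane and Prtn3. The list as a whole did not share this direction. Of its 9 genes, 6 were higher and 3 lower at 4 weeks than control, with a median of 0.09. Lyz2, Mgst1 and Lyz1 were higher by 0.66, 0.35 and 0.29 without passing the test. On the arrays labelled control, Lyz2 and Mgst1 had means of 10.17 and 9.55, against 5.49 for Ms4a3 and 3.87 for Bpi. Which cells of the whole mucosa gave the RNA of the genes in this list was not tested. Over all probe sets, 14.4% were called in this comparison. Bpi, the bactericidal protein of primary granules, read 3.66 to 4.02 over all 9 arrays and differed from control by -0.14 at 4 weeks (limma adjusted p = 0.258).

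A list of other genes, set beside those of specific, gelatinase and secretory granules, had 17 measured. Not all encode granule proteins, Dgat2 among those that do not. Of the 17, 0 were called in either comparison with control, and 2 were called lower in 4-week against OVA. These were Lrg1, which fell by 0.82 ± 0.12 (SE, limma adjusted p = 0.0083, held in 9 of 9 fits), and Dgat2, which fell by 0.53 ± 0.12 (limma adjusted p = 0.039, held in 4 of 9, and 0.0535 with every row in the adjustment). Mmp8 and Mmp9, the collagenase and gelatinase of these granules, differed by at most 0.26 between any groups, with limma adjusted p of 0.459 to 0.943. Cd177, a surface protein of a subset of neutrophils, was 1.00 higher in OVA than control (limma adjusted p = 0.302) and 1.25 lower in 4-week than OVA (limma adjusted p = 0.127). Pglyrp1, a peptidoglycan-binding granule protein, was 0.91 higher after OVA (limma adjusted p = 0.267). Anxa1 and Cyba were 1.05 and 0.66 higher (limma adjusted p = 0.104 and 0.0843). In OVA against control, 13 of the 17 were higher and 4 lower, and 6 lay wholly higher, against 10.4% of all probe sets. In 4-week against OVA, 15 were lower and 2 higher, and 6 lay wholly lower, against 13.7%. Of all probe sets, 1.30% were called in OVA against control, 6.33% in 4-week against OVA and 14.4% in 4-week against control.

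The 14 regulators of granulocyte formation included Cebpe, the transcription factor that turns on specific granule genes. Cebpe read 6.80, 6.91 and 6.80 on the arrays labelled control, 6.55, 6.55 and 6.91 on the OVA arrays, and 6.26, 6.22 and 5.93 on the 4-week arrays. The 4-week arrays lay below all others. Cebpe fell by 0.71 ± 0.12 (SE) against control, a call that held in 9 of 9 fits (limma adjusted p = 0.00831), and by 0.54 ± 0.12 against OVA, a call that held in 0 of 9 (limma adjusted p = 0.0367). Cebpd, a related factor induced in inflammation, rose by 1.17 ± 0.21 after OVA (limma adjusted p = 0.0396, held in 2 of 9). Csf2ra fell by 0.51 from OVA to 4 weeks (limma adjusted p = 0.0425), and Kit, the stem cell factor receptor, which mast cells also express, was 0.56 higher at 4 weeks than control (limma adjusted p = 0.0411). With every row in the adjustment, Cebpd after OVA (limma adjusted p = 0.0775), Cebpe (0.0505) and Csf2ra (0.0581) against OVA, and Kit (0.0588) missed the threshold. The same calls were lost in the fit on the groups compared alone (limma adjusted p = 0.0937, 0.0856, 0.0808 and 0.0567, in that order). Gfi1, the repressor needed for neutrophil maturation, differed by at most 0.08 in any comparison, and Csf3, which encodes the cytokine itself, by at most 0.41, without passing.

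**Figure D5:**
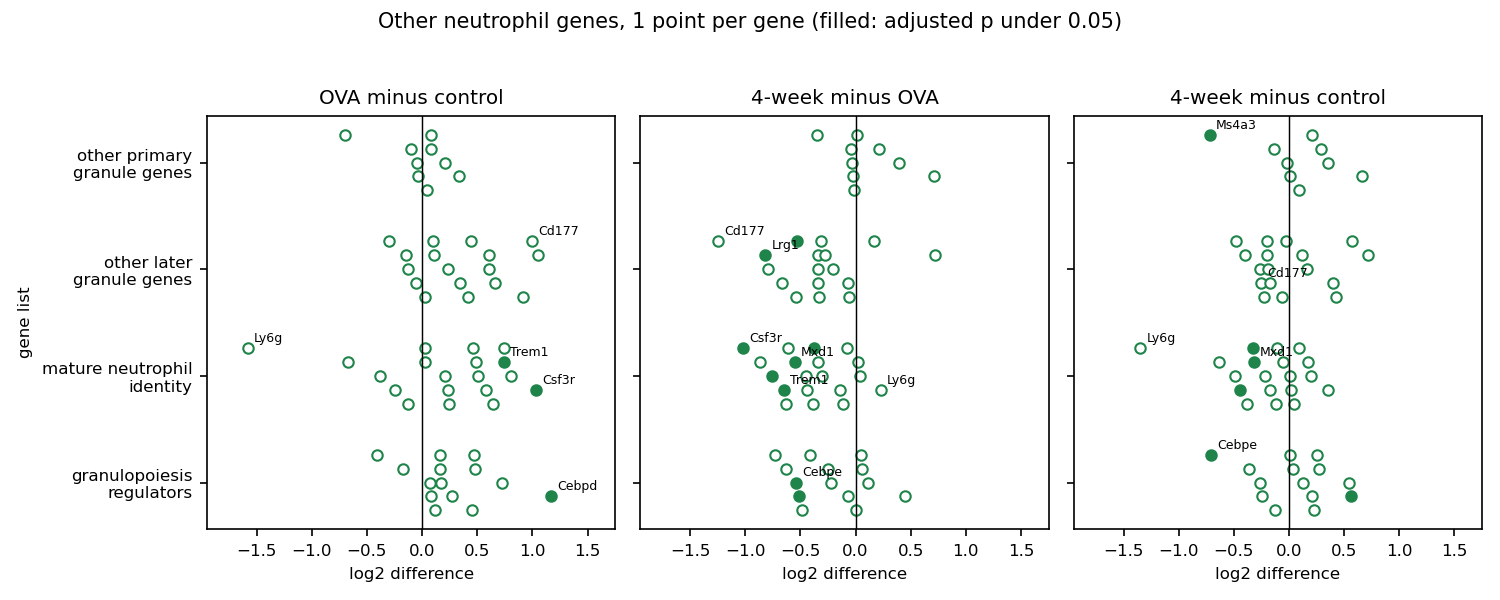
Log2 differences (horizontal axis) of other neutrophil genes, 1 point per gene in 4 gene lists (rows), 1 panel per comparison, with filled points for an adjusted p under 0.05 in limma. Csf3r and Trem1 are filled on the right after OVA and on the left in 4-week minus OVA, while Ly6g lies far left in both panels against control without being called.

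Lists of cells that could bring maturing neutrophils or their RNA into the samples were read beside these results. In the lists of bone (10 genes measured), erythroid (9), B-lymphoid progenitor (11) and megakaryocyte and platelet markers (7), 0 genes were called in any comparison. Over all probe sets, the shares called were 1.30% in OVA against control, 6.33% in 4-week against OVA and 14.4% in 4-week against control. Mean levels of the erythroid list were 6.18 to 6.38 on the arrays labelled control, 6.20 to 6.63 on the OVA arrays and 6.24 to 6.73 on the 4-week arrays. Those of the bone list were 7.43 to 8.09, 7.36 to 7.82 and 7.54 to 8.30. Those of the B-lymphoid progenitor list were 5.62 to 5.74, 5.58 to 5.63 and 5.59 to 5.63. The mean over the primary granule genes ran from 6.74 to 7.47, from 5.95 to 6.58 and from 5.47 to 6.39. At 4 weeks against control, 9 of 11 B-lymphoid progenitor genes were lower, with a median of -0.13. In the same comparison 7 of 10 bone genes and 7 of 9 erythroid genes were higher.

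The megakaryocyte and platelet list had its lowest array means at 4 weeks. Its means were 6.68 to 7.08 on the arrays labelled control, 6.57 to 6.89 on the OVA arrays and 6.29 to 6.76 on the 4-week arrays. All 7 of its genes were lower at 4 weeks than control, by 0.04 to 1.02, and 4 of them did not overlap, where 18.4% of all probe sets lay wholly lower. The largest difference was that of Ppbp, at -1.02 ± 0.37 (SE, limma adjusted p = 0.0963). Monocyte and macrophage markers had 0 of 12 genes called in any comparison, and means of 5.76 to 6.38, 6.14 to 6.96 and 6.13 to 6.28. Of 9 proliferation markers, Mki67 and Top2a were called higher, by 0.70 and 0.38, at 4 weeks against control (limma adjusted p = 0.0579 and 0.0511 with every row in the adjustment), where the primary granule genes were lower. The part of these cell types in the granule gene results was not tested.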

How the data were processed

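RNA from the nasal tissue was purified on a column and hybridised 1 sample per array, per the labels' protocols. The authors deposited log2 values of each probe set after RMA, a method that corrects background, equalises arrays and summarises probes, per the submitters' processing notes. The log2 scale was read from the values, and the RMA version and detection calls were not given in the sources used here. Of 35556 probe sets, 23410 had a gene symbol in the platform annotation and were tested, and 21789 of these had exactly 1. The model of limma 3.58.1, run in R 4.3.3, had 1 mean per group over all 9 arrays, with two-sided moderated tests, Benjamini-Hochberg adjustment in each comparison over the 23410 probe sets and a threshold of 0.05. Arrays were also left out in turn. The script was tested on simulated data. The 10 genes and the lists beside them were chosen with earlier results of these data known, so no list was tested. Other genes named were those called in their list, those with the largest change in a comparison, and a set of neutrophil markers. Genes that share a probe set with another gene, and proteins, were not analysed here.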

Additional observations from a re-analysis of the deposited data

How the results depend on the processing

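The median differences of the primary and of the later genes moved by less than the spread between replicates under every alternative run, leaving out each array included. That spread was wide for the later genes, whose mean over all 6 had an SD of 0.80 on the arrays labelled control. Without 1 array, OVA minus control ran from -1.72 to -0.83 for Ngp, -1.58 to -0.94 for Camp and 0.57 to 1.63 for Lcn2. A shift within that spread can change the order of the primary and later medians, which was not followed across fits. The number of probe sets called moved more. In OVA minus control it was 143 with every row of the table, 109 with only the groups compared, and 63 to 305 without 1 array. In 4-week minus OVA it was 946 with 1 probe set per gene, 737 with only the groups compared, and 446 to 1361 without 1 array. In 4-week minus control it was 2054 with only the groups compared and 1560 to 2966 without 1 array. Fewer arrays or other sets of rows make these fits differ by construction.

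Without 1 array, the number of primary genes called lower was 1 to 3 in 4-week minus control and 0 to 1 in 4-week minus OVA. The number of later genes called lower was 0 to 1 in each comparison with control, and called higher 0 to 1 in 4-week minus control. After group means were removed, same-numbered arrays of different groups correlated at -0.04 to 0.33 and arrays of different numbers at -0.36 to 0.27. For 4 of 9 arrays, the array of the same number was the best match in both other groups. Whether the replicate numbers pair the arrays was not tested. With the replicate number as a block, 213 probe sets were called in OVA minus control, 1397 in 4-week minus OVA, and 3271 in 4-week minus control. With this replicate block 2 primary genes were called lower in OVA minus control, Mpo (limma adjusted p = 0.0153) and Prtn3 (0.0399), and Ctsg and Ppbp were called lower in 4-week minus control (0.0098 and 0.012). The block also ended calls: Csf3r after OVA (0.0623), Cebpe (0.0635), Dgat2 (0.0609), Clec4d (0.0509), Ncf4 (0.071) and Csf2ra (0.0649) in 4-week minus OVA, and Padi4 (0.0699) and Kit (0.0593) in 4-week minus control.

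Signs turned for differences near 0. Under quantile normalization the 4-week minus OVA difference was -0.06 for Ltf, 0.06 for Bpi and 0.05 for Ms4a3, and the 4-week minus control difference of Bpi was 0.00, while median centring gave 0.00 for Ms4a3 in 4-week minus OVA. Without 1 array, 4-week minus OVA ran from -0.44 to 0.12 for Ctsg, -0.20 to 0.70 for Ngp, -0.07 to 0.46 for Camp, -0.12 to 0.21 for Ltf, -0.39 to 0.42 for S100a8 and -0.22 to 0.72 for S100a9. Among other genes it ran from -0.17 to 0.81 for Ly6g, -0.45 to 0.47 for Mmp8, -0.20 to 0.11 for Ms4a3 and -0.13 to 0.22 for Trem3. Likewise 4-week minus control ran from -0.62 to 0.40 for S100a9, -0.58 to 0.34 for Mmp8, -0.63 to 0.07 for Cd177, -0.21 to 0.21 for Csf3r, -0.03 to 0.34 for Cxcr2, -0.67 to 0.02 for Retnlg and -0.03 to 0.03 for Gfi1, and OVA minus control from -0.42 to 0.15 for Mmp8 and -0.26 to 0.19 for Mmp9. The cause was not tested. No member had another probe set of its own, so that alternative gave no value. With no detection calls, signal over background is unknown, and 3 arrays per group limit every comparison.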
